A study of Mus musculus with 92 samples.

Results

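Adar1 KO macrophages that differentiated in the third of 5 baricitinib concentrations were compared with Adar1 KO macrophages that received none, in 6 of the 92 bulk RNA libraries of the series, chosen by the treatment in their titles. The cells are ER-Hoxb8 macrophages: mouse marrow progenitors held immature by an estrogen-dependent Hoxb8 protein, which mature once estrogen is withdrawn. Both groups are Cas9 het cells edited with Adar sgRNA #1 and were sampled on day 7 in 30 ng/mL M-CSF, with 3 libraries at 0 uM and 3 at the dose that the titles give as 0.016 uM. NTC macrophages (Cas9 het, NTC guide) with 3 libraries at 0 uM and 4 at 0.016 uM served as controls, and Adar1 KO macrophages at 0.0006 uM (3 libraries), 0.4 uM (3) and 10 uM (4) as neighbouring doses. Cells were seeded at 100000 per well of a 24-well plate and RNA was taken from adherent cells 24 h after the last media change, with drug renewed at each change. Each genotype is an edited population of the same conditionally immortalized system rather than cells of separate animals, so p-values measure the spread between differentiations. The dose itself carries a doubt. The titles give 0.016 uM, which makes every step from 0.00064 to 0.016, 0.4 and 10 uM 25-fold, whereas the treatment protocol and the methods give 0.16 uM. Doses are written here as in the titles.

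Baricitinib inhibits the Janus kinases JAK1 and JAK2. Type I interferon binds a receptor coupled to JAK1 and TYK2, which phosphorylate STAT proteins. These enter the nucleus, and a complex that holds IRF9 binds the interferon-stimulated response element (ISRE) and switches on interferon-stimulated genes (ISGs). ADAR1 edits adenosine in double-stranded RNA, and in its absence unedited endogenous RNA is sensed by MDA5, encoded by Ifih1, which triggers interferon production. The comparison asks how far the ISG programme and the rest of the transcriptome of Adar1 KO macrophages had moved at the third dose.

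Several libraries differ in ways that bear on the results. Depth, estimated from the value of a single read among low genes, was 15.4, 10.6 and 15.6 M reads in replicates 1 to 3 at 0 uM and 8.54, 34.2 and 10.95 M at 0.016 uM, so replicate 2 at 0.016 uM was the deepest of the 6. Replicate 1 at 0 uM had a mean log2 CPM over the 437 genes called lower at 0.016 uM of 5.83, against 5.39 and 5.17 in replicates 2 and 3. Those genes were selected partly through these libraries. Distance was taken as the root of the summed squared log2 differences over tested genes from the mean of a group's other replicates. By that measure replicate 1 at 0 uM differed little from its group, at 64.8 against 58.2 and 60.9 for replicates 2 and 3. Adar1 KO replicate 2 at 0.4 uM stood apart most, at a distance of 132.6, against 80.7 and 78.4 for the other replicates of its group. Its mean over 20 ISGs was 10.08, against 1.78 and 3.29 in the other 0.4 uM libraries. That library is outside the 6, but it enters the estimate of the spread shared by all 33 baricitinib libraries. The main count, the interferon lists and some other lists are therefore also given without it, a setting chosen after seeing the data.

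Adar transcript was measured in every library. It read 7.42, 6.52 and 6.37 log2 CPM in replicates 1 to 3 of Adar1 KO macrophages at 0 uM and 6.25, 5.90 and 6.37 at 0.016 uM. In NTC macrophages it read 5.12, 4.94 and 4.69 at 0 uM and 4.31, 4.58, 4.40 and 4.34 at 0.016 uM. All 6 Adar1 KO libraries were thus above all 7 NTC libraries. A Cas9 cut leaves a transcript that is still counted, and Adar is itself interferon-inducible, so its RNA level does not check the edit. Its log2 fold change (log2FC) at 0.016 uM in Adar1 KO macrophages was -0.59 (95% interval -1.58 to 0.39, limma adjusted p = 0.517).

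Macrophage identity was kept in both groups. A list of 13 macrophage genes averaged 8.97, 9.02 and 9.13 log2 CPM at 0 uM and 9.18, 9.30 and 9.04 at 0.016 uM, and their summed level ran from 11690 to 14310 CPM at 0 uM and from 13920 to 17710 CPM at 0.016 uM, with Cd14 the most abundant. Markers of other blood cells were scarce. The 10 lymphoid markers summed to at most 0.396 CPM in any of the 6 libraries (6 of 10 at the lowest value in all 6, Cd8a the most abundant) and the 10 mast cell and basophil markers to at most 0.402 CPM (7 of 10 at the lowest value in all 6, Cpa3 the most abundant). The 13 progenitor genes summed to 3.56 to 5.54 CPM, led by Cd34, and the 10 dendritic cell genes to 1.46 to 2.84 CPM, led by Zbtb46. The 10 erythroid and megakaryocyte genes summed to 0.472 to 1.16 CPM, led by Klf1. The 11 neutrophil markers summed to 270.7 to 276.8 CPM at 0 uM and 228.5 to 245.5 CPM at 0.016 uM, led by Csf3r (7.66, 7.67 and 7.71 log2 CPM at 0 uM and 7.47, 7.44 and 7.33 at 0.016 uM), which macrophages may also express, and S100a8 (5.98, 6.05 and 5.74 against 5.94, 5.71 and 5.89).

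The third dose left the interferon programme of Adar1 KO macrophages high while many other genes moved. Of 11152 genes tested, 692 changed between 0.016 and 0 uM (limma, adjusted p below 0.05), 255 higher and 437 lower, which is 6.21% of the genes tested (2.29% higher and 3.92% lower). The changes were small: the median size was 0.60 log2 among higher and 0.88 among lower genes, and 17 genes (0.152%), 5 higher and 12 lower, also passed a log2FC of 2. None of the higher ones did with a replicate block by runs of library numbers (0 higher, 12 lower), on log2(CPM + 1) (0 higher, 6 lower), without replicate 2 at 0.016 uM (0 higher, 8 lower) or without replicate 1 at 0 uM (0 higher, 2 lower). None of 20 ISGs was among the 692. At an unadjusted p below 0.05 limma listed 2390 genes, 21.4% of those tested.

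That count depended on single libraries, and on the choice of libraries and weights as well: it was 14 with only the 16 Adar1 KO libraries and 1562 with array weights. Without replicate 1 at 0 uM 31 genes changed (0.278%), 2 higher and 29 lower (0.26% of those tested, with 1410 or 12.7% at an unadjusted p below 0.05), of which 30 are among the 692. Without replicate 2 at 0 uM 383 genes changed and without replicate 3 at 0 uM 1056. Without replicate 1 at 0.016 uM the count was 202 and without replicate 2 it was 144, whereas it was 870 without replicate 3. The direction was stable even where the call was not: without replicate 1 at 0 uM the median log2FC of the 437 lower genes was -0.72 in place of -0.88, and that of the 255 higher genes 0.51 in place of 0.60. The genes were selected in a fit that shares most of these libraries, so the kept sign is not separate evidence.

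**Figure D1:**
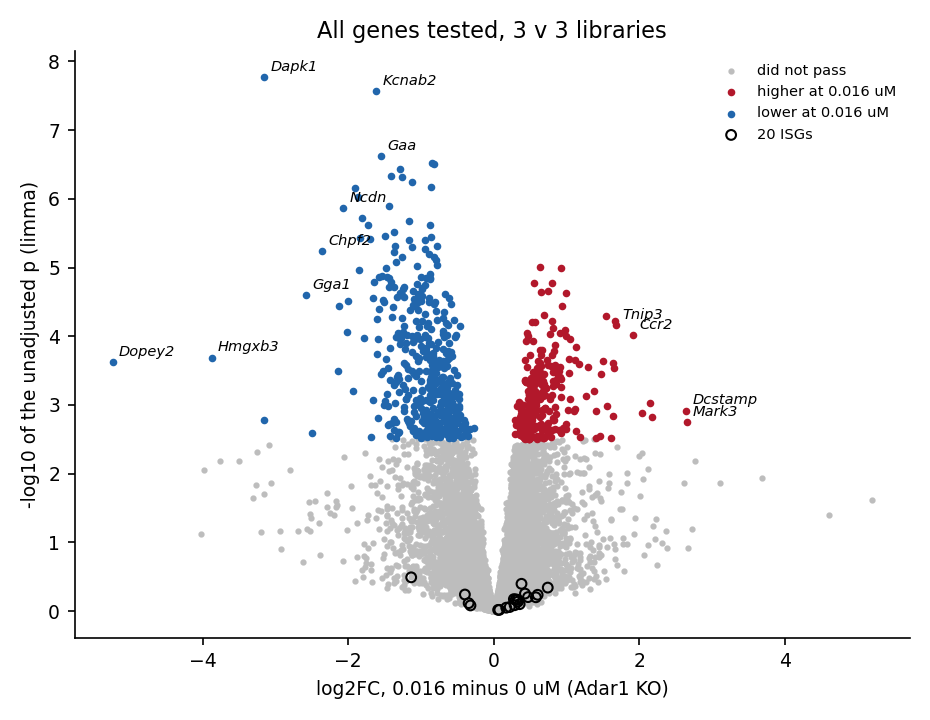
Each point is 1 of 11152 genes, with the log2FC between 0.016 and 0 uM in Adar1 KO macrophages on the x axis and the -log10 of limma's unadjusted p on the y axis. Genes that passed the adjusted threshold are red (255 higher) or blue (437 lower), and circles mark the 20 ISGs, all of which lie low in the plot.

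The 20 ISGs that the study lists are described first. Ifit1, which binds viral RNA lacking cap methylation, read 8.83, 8.96 and 9.15 log2 CPM at 0 uM and 9.36, 9.23 and 9.00 at 0.016 uM. Isg15, a ubiquitin-like modifier, read 6.74, 7.07 and 7.15 at 0 uM and 7.75, 7.74 and 7.29 at 0.016 uM. Usp18, which removes that modifier, read 8.46, 8.52 and 8.74 at 0 uM and 9.03, 9.04 and 8.73 at 0.016 uM. Libraries of both doses thus sat within about 1 log2 unit of each other for these genes, and Isg15 was above its 0 uM range in every 0.016 uM library. Cxcl10, a chemokine for T cells, read 1.64, 2.77 and 2.37 at 0 uM and 2.56, 2.54 and 2.54 at 0.016 uM, with overlap between the groups. Oas3, one of the synthetases that activate RNase L, was the member that lay lower, at 8.70, 7.75 and 7.40 against 6.99, 6.55 and 6.91. Stat2 also lay lower in every library, at 7.79, 7.74 and 7.67 against 7.52, 7.18 and 7.31.

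Over the list, 0 of 20 ISGs passed in either direction by limma, with 0 of 20 at an unadjusted p below 0.05. The median log2FC was 0.30, beside 0.06 over all genes tested, and 16 of 20 values were positive, from -1.13 for Oas3 to 0.74 for Isg20. A replicate block by runs of library numbers gave a higher median, which is given at the end of the text. In 4 of 20 ISGs all 0.016 uM libraries lay above all 0 uM libraries and in 2 of 20 below, where over all genes tested that held for 12.8% in each direction. Intervals were wide. The 95% interval was -2.53 to 2.97 for Ifit1, -1.60 to 2.81 for Isg15 and -3.44 to 1.17 for Oas3. The width comes from the shared spread, in which the 0.4 uM replicates differ strongly for ISGs.

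With only the 6 libraries in the fit the intervals were narrower: -0.08 to 0.52 for Ifit1, 0.24 to 0.97 for Isg15 and -1.76 to -0.51 for Oas3. There 11 of 20 ISGs had an unadjusted p below 0.05 (beside 22% of the 10140 genes tested in that fit), among them Isg15, Zbp1 and Isg20 with positive and Oas3 and Stat2 with negative log2FC. The smallest adjusted p, of Oas3, was 0.0684 by limma, so 0 of 20 passed there too, where 1.7% of the genes tested passed and 1.53% were lower. Leaving Adar1 KO replicate 2 at 0.4 uM out of the spread, 5 of 20 had an unadjusted p below 0.05 (26.2% of all genes), 0 of 20 passed (10.1% of all genes, 5.31% lower) and the smallest adjusted p was 0.0511. Oas1a and Oas1g are near-identical neighbours and share reads, so their separate values are uncertain.

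The promoters of 4 of these ISGs are printed because the ISRE is the sequence through which the inhibited pathway acts. They are RefSeq windows of 300 bases around the start of the gene on build GRCm38.p6, and capitals mark matches, on either strand, to GAAA followed by any 2 bases and GAAA again.
Ifit1 promoter, chr19:34640639-34640938, plus strand: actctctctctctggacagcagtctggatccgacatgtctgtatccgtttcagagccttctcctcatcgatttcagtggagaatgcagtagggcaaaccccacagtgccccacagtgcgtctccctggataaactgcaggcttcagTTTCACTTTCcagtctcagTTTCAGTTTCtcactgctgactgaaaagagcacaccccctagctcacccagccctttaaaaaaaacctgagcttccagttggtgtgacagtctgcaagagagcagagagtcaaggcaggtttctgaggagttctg
Isg15 promoter, chr4:156200769-156201068, minus strand: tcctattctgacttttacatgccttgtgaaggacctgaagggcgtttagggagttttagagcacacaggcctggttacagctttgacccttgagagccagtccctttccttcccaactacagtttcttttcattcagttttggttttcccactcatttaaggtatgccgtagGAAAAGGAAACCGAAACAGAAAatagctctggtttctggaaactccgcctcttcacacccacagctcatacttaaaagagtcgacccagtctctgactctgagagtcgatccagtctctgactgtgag
Cxcl10 promoter, chr5:92348840-92349139, minus strand: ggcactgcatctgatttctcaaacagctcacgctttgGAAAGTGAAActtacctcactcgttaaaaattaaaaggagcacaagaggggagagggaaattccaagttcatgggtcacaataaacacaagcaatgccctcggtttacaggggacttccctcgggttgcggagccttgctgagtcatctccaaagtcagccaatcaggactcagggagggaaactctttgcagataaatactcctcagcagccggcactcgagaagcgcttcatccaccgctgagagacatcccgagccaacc
Rsad2 promoter, chr12:26456403-26456702, minus strand: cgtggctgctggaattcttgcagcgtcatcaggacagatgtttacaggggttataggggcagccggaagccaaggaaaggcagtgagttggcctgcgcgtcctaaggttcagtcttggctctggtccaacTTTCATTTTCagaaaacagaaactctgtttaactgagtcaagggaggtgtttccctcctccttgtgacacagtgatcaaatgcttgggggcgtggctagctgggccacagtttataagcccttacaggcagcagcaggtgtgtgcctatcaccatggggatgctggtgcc
The motif was found in 10 of the 15 ISGs that have a promoter in the table (66.7%), in 3.49% of all 27025 promoters and in 3.23% of the 8335 tested genes with one. Among genes that changed at 0.016 uM it was found in 8 of 185 higher (4.32%) and 9 of 356 lower genes (2.53%). The motif of STAT dimers, TTC and GAA with any 3 bases between, was found in 3 of 15 ISGs (20%), 14 of 185 higher (7.57%) and 20 of 356 lower genes (5.62%), against 8.47% of all promoters and 7.04% of those of tested genes. A match describes the letters of the window and is not evidence of binding.

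Other interferon-inducible groups had positive medians with few or no calls when all libraries entered the spread, and more calls in some groups otherwise. Among 38 further antiviral ISGs in the table (Mx1, Oasl1, Cmpk2 and others), 0 passed by limma with 0 at an unadjusted p below 0.05, and the median log2FC was 0.29. The 13 tested guanylate-binding proteins and immunity-related GTPases, which attack pathogen vacuoles, had a median of 0.22 and 0 calls, and the 19 MHC class I and immunoproteasome genes a median of 0.30 and 0 calls, both with 0 at an unadjusted p below 0.05. Leaving Adar1 KO replicate 2 at 0.4 uM out of the spread, 3 of the 38 antiviral ISGs rose and 2 fell (smallest limma adjusted p 0.00801), 5 of the 19 MHC class I genes rose and 0 fell (smallest 0.00622), and 0 of 13 guanylate-binding proteins and GTPases passed (2 at an unadjusted p below 0.05), where 534 of 11128 genes rose and 5.31% fell. With only the 6 libraries 0 of each group passed by limma, with 19 of 38, 9 of 19 and 4 of 13 at an unadjusted p below 0.05, beside 22% of genes tested. Members of the guanylate-binding protein and Tgtp families share sequence and their split is uncertain. Of 6 tested MHC class II genes 1 rose, where 2.29% of all genes rose: Cd74, the invariant chain, read 4.71, 5.21 and 5.42 log2 CPM at 0 uM and 5.98, 6.37 and 5.54 at 0.016 uM (log2FC 0.86, SE 0.24, limma adjusted p = 0.0321), a call lost without replicate 1 at 0 uM (adjusted p = 0.262). Of 12 tested chemokines 0 passed (1 at an unadjusted p below 0.05), with a median of 0.39. Of 7 tested interferon regulatory factors 0 passed (0 unadjusted), with a median of 0.06.

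A further list was taken from libraries outside the comparison: genes higher by a log2FC of at least 2 in Adar1 KO sgRNA #1 than in NTC macrophages that never saw baricitinib (3 v 2 libraries, 10248 genes tested, 327 higher and 63 lower). NTC replicate 2 of that set was left out because its lowest value differs, which marks another normalization set. Of the 327, 320 were tested here. Their median log2FC at 0.016 uM was 0.29, 239 of 320 were positive, and 10 rose and 0 fell, where 2.29% of all genes rose and 3.92% fell. Leaving Adar1 KO replicate 2 at 0.4 uM out of the spread, 31 of 319 rose and 1 fell, where 534 of 11128 genes rose and 5.31% fell. The 10, not all named here, include Slamf9, St3gal6, Nt5e, Msr1, Raet1d and Raet1e. None of the 10 is among the 20 ISGs or the 38 further antiviral ISGs, of which 0 rose in the main fit. With replicate 1 at 0 uM left out 0 of 320 passed (14 at an unadjusted p below 0.05 by limma), at a median of 0.21.

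**Figure D2:**
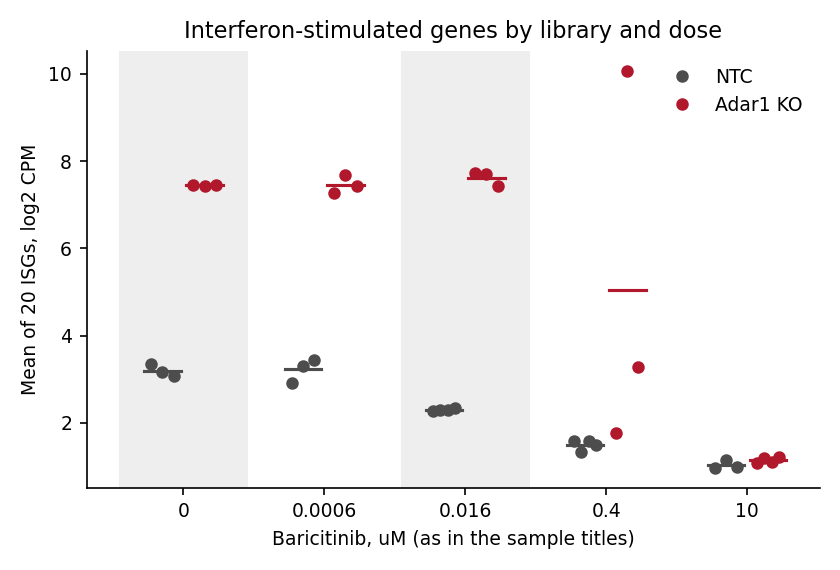
Mean log2 CPM over the 20 ISGs (y axis) at each baricitinib dose (x axis) in NTC (grey) and Adar1 KO (red) macrophages, with 1 point per library, a bar for the mean, and shading for the compared doses. Adar1 KO libraries sit between 7.43 and 7.46 at 0 uM and between 7.44 and 7.73 at 0.016 uM, and separate at 0.4 uM.

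The kinases, STATs and partners of the inhibited pathway gave calls in the downward direction only, although the list as a whole did not lie low. Of 16 tested JAK-STAT components 4 fell and 0 rose, where 3.92% of all genes fell, while the median log2FC was 0.22 and 10 of 16 were positive. No test compared this list with the ISGs. Stat6, which carries interleukin 4 signals, read 8.80, 8.47 and 8.39 log2 CPM at 0 uM and 7.62, 7.64 and 8.01 at 0.016 uM, without overlap (log2FC -0.79, SE 0.14, limma adjusted p = 0.00250). Stat5a and Stat5b, which act downstream of GM-CSF and related cytokines, fell by 0.79 and 0.51 on the log2 scale. Jak3, the kinase of the common gamma chain, fell by 1.37, from 4.53, 4.40 and 4.12 to 3.49, 2.04 and 3.43. Jak1, Jak2, Tyk2 and Stat3 did not pass. Of 12 tested receptors that signal through JAKs 2 fell: Il4ra, from 5.37, 4.44 and 4.18 to 3.39, 3.04 and 3.20, and Csf2rb2, from 5.92, 5.22 and 4.84 to 4.35, 4.40 and 4.32. The list's median was -0.20. Of 12 tested feedback genes and STAT5 or STAT3 targets, such as Socs3 and Pim1, 0 passed by limma. At an unadjusted p below 0.05 limma listed 5 of them, beside 21.4% of all genes tested. Leaving Adar1 KO replicate 2 at 0.4 uM out of the spread, 1 of the 12 rose, where 534 of 11128 genes rose. Of 6 tested interferon genes and receptors 1 rose, where 2.29% of all genes rose. It was Ifngr2, a chain of the interferon gamma receptor, which read 4.72, 5.37 and 5.25 at 0 uM and 5.93, 5.92 and 5.88 at 0.016 uM. None of these calls held by limma when replicate 1 at 0 uM was left out, with an adjusted p of 0.0538 for Stat6, 0.207 for Jak3 and 0.150 for Ifngr2.

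Among all genes the largest fall was that of Dopey2, at 4.03, 3.24 and 0.11 log2 CPM at 0 uM and at the lowest deposited value of -2.78 in all 3 libraries at 0.016 uM. Against a floor of 3 reads per library the mean is at least 35.0-fold lower, although the 0 uM replicates themselves differ widely. That ratio rests on a 0 uM mean of 8.8 CPM with an SD of 7.6, so it is not a bound for each replicate. In NTC macrophages at 0.016 uM Dopey2 read -2.78, 2.90, 2.13 and -2.78, so it also reached the lowest value in some control libraries. Dapk1, a calmodulin-dependent kinase linked to cell death and autophagy, had the smallest p of all genes. It read 0.43, 0.50 and 0.19 at 0 uM and was at the lowest value in all 3 libraries at 0.016 uM, the 34.2 M library included, which is at least 4.58-fold lower (log2FC of the fit -3.15, limma adjusted p = 0.000152). Values fitted from transcript assignment can fall to the lowest value for such a low gene, and this was not tested for Dapk1 or for Dopey2. Hmgxb3 behaved in a like manner, from 0.18, 1.41 and 1.87 to -2.78, -2.62 and -2.78.

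Better expressed genes showed graded falls. Chpf2, an enzyme of chondroitin sulfate synthesis, read 6.97, 5.57 and 4.99 at 0 uM and 3.39, 2.88 and 4.18 at 0.016 uM (log2FC -2.36, SE 0.42, limma adjusted p = 0.00215). Gga1, a clathrin adaptor of the Golgi, read 6.05, 5.14 and 4.85 against 1.96, 3.00 and 3.33. Ncdn, encoding neurochondrin, read 5.73, 4.74 and 4.28 against 2.60, 2.48 and 3.45. In each of these genes replicate 1 was the highest of the 0 uM libraries, yet the other replicates at 0 uM were also above all 0.016 uM libraries. Tgm2, a transglutaminase of macrophages, read 5.80, 5.00 and 4.94 against 2.61, 2.96 and 4.12. Cyp4f17, Man2a2 and PCDHGB6, the last listed under that symbol and part of a family with shared exons, had log2FC between -3.16 and -2.13. Kcnab2, a potassium channel subunit, and Gaa, the lysosomal enzyme that breaks down glycogen, had the next smallest p values after Dapk1. Kcnab2 read 6.98, 6.41 and 6.16 against 4.84, 4.70 and 5.16, and Gaa 7.44, 6.62 and 6.28 against 5.18, 4.85 and 5.65. Of the 10 lower genes named by size only Dapk1 and Ncdn passed without replicate 1 at 0 uM, and Dopey2, Hmgxb3, Cyp4f17, Gga1, Man2a2, Chpf2, PCDHGB6 and Tgm2 did not (limma adjusted p of 0.0542 for Hmgxb3, 0.0526 for Chpf2, 0.0671 for Gga1 and 0.132 for Dopey2). Kcnab2, Gaa and Srebf2 passed without replicate 1 at 0 uM as well (limma adjusted p of 0.00502 for Kcnab2 and 0.0177 for Gaa), where 0.278% of genes tested passed.

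A few lipid genes were in the lower set. Of 24 tested sterol and fatty acid synthesis genes 3 fell and 0 rose, where 3.92% of all genes fell, and the median log2FC was -0.18. Srebf2, the master regulator of cholesterol synthesis, read 6.19, 4.91 and 4.33 at 0 uM and 3.50, 3.28 and 3.44 at 0.016 uM (log2FC -1.73, SE 0.29, limma adjusted p = 0.00151). Acly, which makes cytosolic acetyl-CoA, fell by 0.48 on the log2 scale. The enzymes Sqle and Fasn did not pass. Leaving Adar1 KO replicate 2 at 0.4 uM out of the spread, 4 of the 24 genes fell and 1 rose. In that fit 5.31% of genes fell and 534 of 11128 rose. Of 18 tested lipid handling genes 1 fell, Fabp5, a fatty acid carrier, from 8.46, 7.55 and 6.96 to 5.95, 5.72 and 7.20, with overlap between the groups. Of 19 tested hypoxia and glycolysis genes 1 fell, Hk1, the first enzyme of glycolysis, by 0.91. Single calls in lists of 18 and 19 are near the share over all genes. Of these, Srebf2 passed without replicate 1 at 0 uM (limma adjusted p = 0.0281).

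The 10 higher genes named by the size of their log2FC are described next. Ccr2, the receptor that draws monocytes to CCL2, read 3.08, 4.53 and 5.11 log2 CPM at 0 uM and 6.61, 6.74 and 5.11 at 0.016 uM (log2FC 1.91, SE 0.42, limma adjusted p = 0.00773). Tnip3, a partner of the NF-kB inhibitor A20, read 1.47, 2.48 and 3.55 against 4.47, 4.46 and 3.62. St3gal6, a sialyltransferase, read 1.68, 2.14 and 2.32 against 4.15, 4.20 and 2.81. In all of these replicate 3 at 0.016 uM was the lowest of its group and close to the 0 uM libraries. Slamf9, a SLAM family receptor of macrophages, rose by 1.66 log2, and Cd207, the lectin langerin, by 1.64. Dcstamp, which drives cell fusion of osteoclasts and giant cells, was at the lowest value in all 0 uM libraries and at -0.24, -0.21 and 0.05 at 0.016 uM, at least 3.17-fold higher. Mark3, 9830107B12Rik, Ndufa9 and Runx3 complete the 10, with log2FC of 2.65, 2.17, 2.15 and 1.64. None of the 10 passed by limma with replicate 1 at 0 uM left out, with adjusted p of 0.123 for Ccr2, 0.107 for Tnip3, 0.0764 for St3gal6 and 0.134 for Slamf9.

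Surface and identity genes of macrophages were described by list. Of 31 tested surface and scavenger genes 4 rose and 0 fell, where 2.29% of all genes rose, and the median log2FC was 0.38. They are Ccr2, Clec7a, the beta-glucan receptor (4.32, 4.94 and 5.14 against 6.19, 6.17 and 5.14), C5ar1, the receptor of complement C5a (6.74, 8.09 and 8.46 against 8.61, 8.76 and 8.37), and Msr1, a scavenger receptor (8.87, 9.27 and 9.47 against 9.68, 9.81 and 9.52). Of the 13 macrophage identity genes 2 rose and 1 fell: Cd14, the coreceptor for lipopolysaccharide, from 10.54, 11.08 and 11.39 to 11.90, 12.35 and 11.54, Msr1, which is on both lists, and Mertk, a receptor for apoptotic cells, from 5.11, 4.25 and 4.28 to 3.59, 3.45 and 3.82. Over all genes tested 2.29% rose and 3.92% fell, and a single call in a list of 13 says little beside those shares. When replicate 1 at 0 uM was left out the limma adjusted p was 0.0585 for Cd14, 0.283 for Mertk, 0.123 for Ccr2, 0.169 for Clec7a, 0.353 for C5ar1 and 0.385 for Msr1, so none of these calls held. Leaving Adar1 KO replicate 2 at 0.4 uM out of the spread, 9 of the 31 surface and scavenger genes rose and 2 fell. In that fit 534 of 11128 genes rose and 5.31% fell. Of 6 tested osteoclast-like genes Dcstamp rose, while the summed level of the list of 11 was 330.8, 235.8 and 242.1 CPM at 0 uM and 144.7, 162.8 and 231.8 CPM at 0.016 uM, led by Atp6v0d2.

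Death and sensing genes gave a few calls, where 2.29% of all genes rose and 3.92% fell. Single calls in lists of this size say little beside those shares. The 2 of 20 cell death genes that rose lie above the share, and this was not tested. Of 20 cell death genes 2 rose and 1 fell: Ripk1, a kinase at the branch between survival and necroptosis, read 4.40, 4.50 and 4.58 at 0 uM and 5.06, 5.07 and 4.99 at 0.016 uM, and Ripk3, its necroptotic partner, 3.30, 3.64 and 4.08 against 4.71, 4.87 and 4.01. Bcl2l11, the death activator BIM, fell by 0.54. Of 18 tested nucleic acid sensors and editors 1 rose, Tmem173, which encodes STING, by 0.59. Of 13 tested p53 targets 1 rose, Btg2, by 0.48. Without replicate 1 at 0 uM the limma adjusted p was 0.0834 for Ripk1, 0.175 for Ripk3, 0.285 for Bcl2l11, 0.0764 for Tmem173 and 0.277 for Btg2. Leaving Adar1 KO replicate 2 at 0.4 uM out of the spread, 4 of the 20 cell death genes rose and 1 fell. Of the 18 sensors and editors 2 rose, and of the 13 p53 targets 1 rose and 1 fell. In that fit 534 of 11128 genes rose and 5.31% fell.

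Proliferation genes gave 1 call at the third dose. Of 22 mitosis genes 0 passed by limma (0 at an unadjusted p below 0.05), with a median log2FC of 0.13, and of 24 DNA replication genes 1 rose, near the 2.29% of all genes that did, Rfc3, a clamp loader subunit, by 0.38, with a median of 0.32, 20 of 24 positive and 4 at an unadjusted p below 0.05. Leaving Adar1 KO replicate 2 at 0.4 uM out of the spread 6 of 24 DNA replication genes rose and 0 of 22 mitosis genes, where 534 of 11128 genes rose. Leaving out replicate 1 at 0 uM, 0 of 24 passed (1 at an unadjusted p below 0.05 by limma), at a median of 0.13. Of 13 mitochondrially encoded genes 1 fell, mt-Nd4l, where 3.92% of all genes fell. The call was lost without replicate 1 at 0 uM, where the smallest limma adjusted p of the list was 0.342. No gene passed among the tested inflammatory cytokines and enzymes (13), NF-kB feedback genes (12), integrated stress response genes (17), NRF2 targets (13), immediate early genes (13), progenitor genes (3), neutrophil markers (6), dendritic cell markers (2), erythroid and megakaryocyte markers (2) and transduction markers (2). At an unadjusted p below 0.05 limma listed 1, 1, 4, 3, 1, 2, 0, 0, 0 and 2 of them, beside 21.4% of all genes tested. The median log2FC was 0.08, -0.04, -0.15, -0.23, -0.10, -0.27, -0.08, -0.12, 0.53 and -1.14, in the same order. Leaving Adar1 KO replicate 2 at 0.4 uM out of the spread, 2 integrated stress response genes rose and 1 fell, and 1 immediate early gene fell. In that fit 534 of 11128 genes rose and 5.31% fell. No mast cell or lymphoid marker was high enough to be tested. In bulk RNA fewer cells of a kind and less RNA per cell cannot be told apart.

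Base composition moved with the calls. Of the genes tested, 96.6% had GC content and length from GENCODE vM21 coding transcripts. The median GC content was 56.1% among genes that fell, 47.3% among those that rose and 50.5% over all genes tested, and the median transcript length was 3062 bases among genes that fell against 2090 among those that rose and 2130 over all. In the 10% of genes poorest in GC 4 of 1078 fell and 36 rose, and in the 10% richest in GC 114 of 1078 fell and 4 rose. The median log2FC went from 0.18 in the former to -0.21 in the latter. Library by library, the mean log2 value of the 25% of genes richest in GC minus that of the 25% poorest was -0.53, -0.51 and -0.67 at 0 uM and -1.01, -1.01 and -0.82 at 0.016 uM, without overlap. At the other doses of Adar1 KO macrophages it was -1.05, -0.80 and -0.71 (0.0006 uM), -0.85, -0.98 and -0.82 (0.4 uM) and between -2.04 and -1.49 (10 uM), so it did not follow the dose step by step. In NTC macrophages it was -0.57, -0.84 and -0.86 at 0 uM and between -0.85 and -0.77 at 0.016 uM. The gradient did not come from replicate 1 at 0 uM alone: without it the medians ran from 0.18 to -0.21 as well, and the 29 genes that fell had a median GC content of 56.4%. Its part in the calls was not tested.

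**Figure D3:**
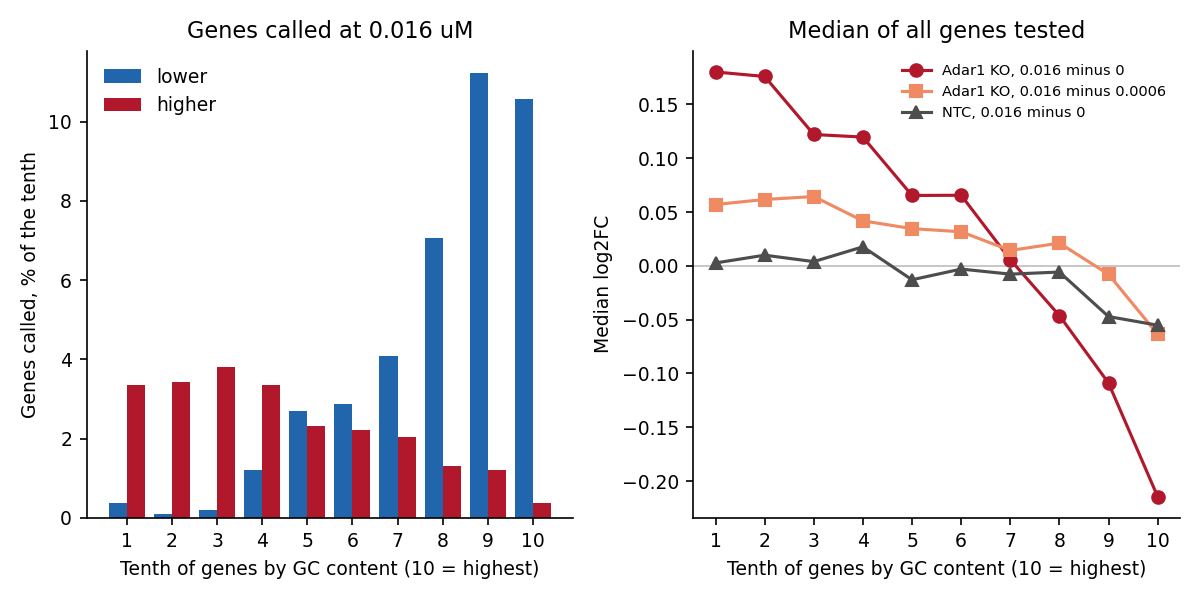
Left, percent of the genes in each of 10 bins of GC content (x axis, 10 being the richest) that was called lower (blue) or higher (red) at 0.016 uM in Adar1 KO macrophages. Right, median log2FC of all tested genes in each bin, which runs from 0.18 to -0.21 in Adar1 KO macrophages between 0.016 and 0 uM and is at 0.00 and -0.06 in the first and last bin in NTC macrophages.

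The same step was tested in NTC macrophages, whose libraries are not part of the 6. Between 0.016 and 0 uM 0 of 11152 genes passed by limma (434 at an unadjusted p below 0.05, 3.89%), and 17 passed without Adar1 KO replicate 2 at 0.4 uM in the shared spread. The 20 ISGs, low in these cells, averaged 3.35, 3.15 and 3.06 log2 CPM at 0 uM and 2.26, 2.30, 2.29 and 2.33 at 0.016 uM, so every treated library lay below every untreated one, whereas in Adar1 KO macrophages the same mean read 7.46, 7.43 and 7.46 against 7.73, 7.70 and 7.44. The median log2FC of the list in NTC cells was -0.81, with 3 of 20 positive, 0 passing and 2 at an unadjusted p below 0.05. Chil3, a chitinase-like protein of macrophages, had the smallest p (log2FC -1.15, 95% interval -1.59 to -0.70, adjusted p = 0.166), followed by P2rx1, Tnfsf14 and Cux2, and none of them passed. The 22 mitosis genes were all positive in NTC cells, at a median of 0.88, with 0 passing and 16 of 22 at an unadjusted p below 0.05. The difference of responses for that list was negative for all 22 (median -0.63), with 0 passing and 1 at an unadjusted p below 0.05.

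The difference between the responses of Adar1 KO and NTC macrophages passed for 1 of 11152 genes by limma (0.00897%, with 1107 or 9.93% at an unadjusted p below 0.05). That gene was Dapk1, which read 1.25, 0.39 and 0.92 log2 CPM in NTC libraries at 0 uM and 0.94, 1.36, 1.37 and 1.03 at 0.016 uM. The difference of responses was -3.48 (SE 0.55, 95% interval -4.60 to -2.36, adjusted p = 0.00911). The call was lost with a replicate block by either rule (adjusted p of 0.0858 and 0.130), on log2(CPM + 1) (0.238) and without NTC replicate 2 at 0 uM (0.0760). For the 20 ISGs the difference had a median of 1.09, 19 of 20 were positive, 0 passed and 0 had an unadjusted p below 0.05. The interval was -0.32 to 4.96 for Oas1g and -1.14 to 6.37 for Usp18. Kcnab2, Stk11ip and Gaa among negative and Gyk, Cd14 and Tbp among positive differences had the smallest p values of the genes that did not pass. In the main fit the 692 genes changed in Adar1 KO cells are therefore not shown to respond differently from NTC cells, and for Dapk1 the call depends on the model. The count depends on it as well: 420 genes passed with array weights (228 higher and 192 lower), and 12 without Adar1 KO replicate 3 at 0 uM. Side by side, the median log2FC of the 437 lower genes was -0.88 in Adar1 KO and -0.17 in NTC macrophages, and that of the 255 higher genes 0.60 and 0.08, with the first of each pair fixed by the selection.

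Neighbouring doses in Adar1 KO macrophages place the third dose. Against 0.0006 uM, a comparison added after seeing the data, 1 gene was called at 0.016 uM by limma, Dapk1 (0.00897%, with 503 or 4.51% at an unadjusted p below 0.05), which read 0.47, -0.90 and -0.60 at 0.0006 uM. That call was lost with either replicate block, with only the 16 Adar1 KO libraries, on log2(CPM + 1), without any 1 of the 0.016 uM libraries, and without replicate 1 or 3 at 0.0006 uM. The 437 lower genes averaged 4.65, 4.55 and 4.76 log2 CPM at 0.0006 uM and 4.40, 4.34 and 4.69 at 0.016 uM, against 5.83, 5.39 and 5.17 at 0 uM, and the 255 higher genes 5.29, 5.52 and 5.43 at 0.0006 uM and 5.75, 5.89 and 5.49 at 0.016 uM, against 4.78, 5.01 and 5.19. Both doses are set against the same 0 uM libraries, in which these genes were selected, so part of the distance at 0.0006 uM follows from the selection and how large that part is was not tested. All libraries of the doses separated for 8.38% of genes tested, 5.04% higher and 3.34% lower at 0.016 uM, and for 0 of 20 ISGs.

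**Figure D4:**
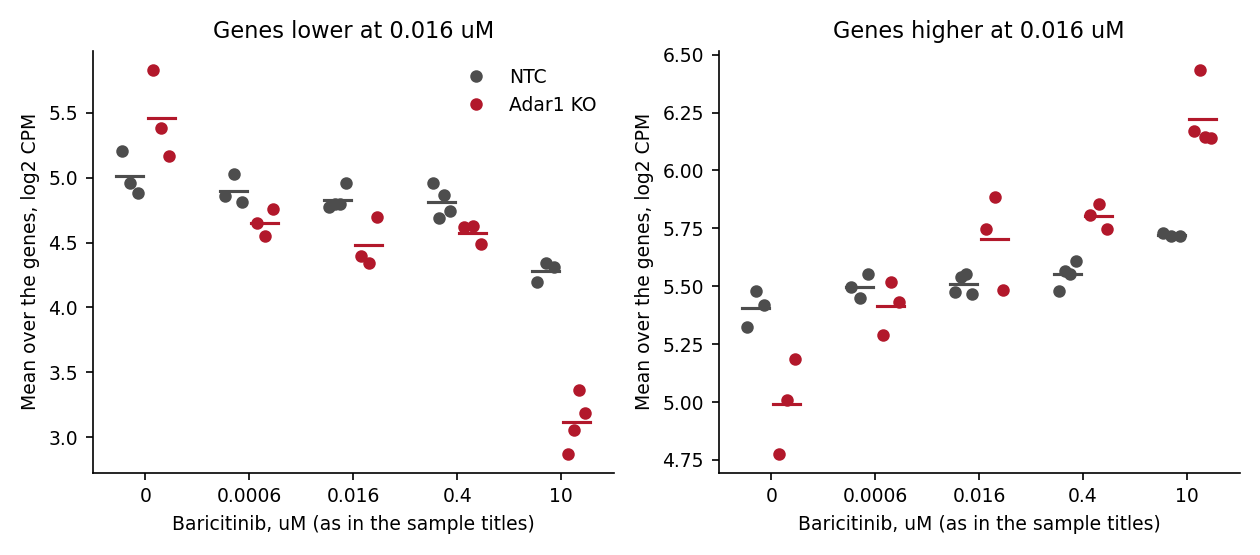
Mean log2 CPM (y axis) over the 437 genes called lower (left) and the 255 called higher (right) at 0.016 uM, by baricitinib dose (x axis), in NTC (grey) and Adar1 KO (red) macrophages, with 1 point per library and a bar for the mean. Genes were selected from the Adar1 KO libraries at 0 and 0.016 uM, where replicate 1 at 0 uM is at 5.83 in the left plot.

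The next step, from 0.016 to 0.4 uM, gave more calls, some of them ISGs, although fewer genes separated in all libraries. By limma 1328 genes changed (11.9%), 773 higher (6.93%) and 555 lower (4.98%), with 2719 (24.4%) at an unadjusted p below 0.05. The libraries did not overlap for 20.3% of genes (10.3% higher, 10.1% lower), against 25.5% between 0.016 and 0 uM, and for 0 of 20 ISGs. Ifit1 read 9.36, 9.23 and 9.00 log2 CPM at 0.016 uM and 0.54, 11.78 and 3.03 at 0.4 uM, and Isg15 7.75, 7.74 and 7.29 against 1.80, 10.58 and 3.38, so replicates 1 and 3 at 0.4 uM were far below and replicate 2 above the 0.016 uM libraries. Whether replicate 2 received the drug as its title says is not known and was not tested, which bears on every value of this step. With all libraries 8 of 20 ISGs fell, Ifi44 (log2FC -5.27), Irf7, Zbp1, Oas1g, Oas2, Oas3, Ifit1 and Usp18, at a median of -2.79, and 1 of 20 when replicate 1 or replicate 3 at 0.4 uM was left out. Without replicate 2 at 0.4 uM 19 of 20 fell, beside 9.95% of genes tested, at a median of -5.40, and 2418 genes changed (21.7%, with 31.6% at an unadjusted p below 0.05). The genes with the largest log2FC among those that changed without overlap were Uri1, Cd5l, Dapk1, Trim68 and St3gal5 among higher genes (4.24 to 3.62) and Ly6a, Mgll, Cyp2a4, Hist1h2bk and Gpr82 among lower genes (-5.81 to -2.91). Cd5l, a scavenger-related secreted protein of macrophages, and Uri1, Dapk1 and Trim68 were at the lowest value in all 0.016 uM libraries and were at least 8.88-, 10.7-, 7.17- and 7.04-fold higher at 0.4 uM. For these low genes too the lowest value may come from transcript assignment, which was not tested. Of 22 mitosis genes 16 rose at this step, at a median of 1.45, and of 24 DNA replication genes 16 rose, at a median of 0.92. Without replicate 2 at 0.4 uM these were 22 of 22 at a median of 2.23 and 23 of 24 at 1.44, where 1311 of 11128 genes rose. Mki67 read 7.23, 4.65 and 6.99 at 0.4 uM and 4.47, 4.61 and 4.91 at 0.016 uM, so replicate 2 was within the lower range, and 2 of 22 mitosis genes separated in all libraries. For all 20 ISGs the median log2FC against 0 uM was 0.08 at 0.0006 uM, 0.30 at 0.016 uM, -2.46 at 0.4 uM and -6.52 at 10 uM, each against the same 0 uM libraries.

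The comparison has limits. Each group holds 3 libraries, and the number of called genes depends on single libraries of both groups. The shared spread is widened for ISGs by the 0.4 uM libraries, so a missing call for an ISG is not a sign of equal levels, and the intervals give the range of differences that remain possible. The dose is given in different ways by the records. Raw counts were not used, and low genes come from deposited normalized values in which 0 reads and a few reads are hard to separate. RNA levels do not measure STAT phosphorylation, protein or editing. A single guide was used, and base composition differed between the compared groups, whose part was not tested.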

How the data were processed

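Bulk RNA-seq of 33 baricitinib libraries was used, 6 of them for the main comparison. According to the paper, the authors assigned reads to the mouse transcriptome with kallisto (0.46.0, build GRCm39), summed them to genes with tximport and scaled libraries by edgeR's TMM. The deposited values are TMM-normalized log2 CPM. The row without a gene name (at most 0.0127% of a library) was left out. CPM were rebuilt from the deposited values with a prior count of 2. Depth was 6.05 to 34.2 M reads, estimated from the value of 1 read, and floors are 3 reads per library and cover counting error only.

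The 11152 genes that exceeded 1 CPM in 3 or more of the libraries were tested with limma 3.58.1 and R 4.3.3, fitting 10 group means and trended eBayes, and p was adjusted by Benjamini-Hochberg. Intervals are 95%. Tables and figures used Python 3.11.15, numpy 2.4.6, pandas 2.3.3 and matplotlib 3.10.9. The model was tested on simulated data. Named genes are Adar, the 10 with the largest log2FC in each direction that passed without overlap between the groups (5 for other comparisons, or those of smallest p where fewer passed), list members and genes the paper names. A few genes were singled out for their small p or their place among the calls after their values were seen. Members and lists were chosen with earlier results of these data known. Other filters, offsets, scalings, variance models, replicate blocks and left-out libraries were tried.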

Additional observations from a re-analysis of the deposited data

Results flagged for a closer look

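The response of Dapk1 to 0.016 uM baricitinib differed between Adar1 KO and NTC macrophages, with a difference of -3.48 on the log2 scale by limma's test of the difference itself (adjusted p = 0.00911). Dapk1 was at the lowest deposited value in all 3 Adar1 KO libraries at 0.016 uM and between -0.90 and 1.13 log2 CPM in the Adar1 KO libraries at 0, 0.0006 and 0.4 uM. The call was lost with a replicate block by the number in the title or by runs of library numbers, and on log2(CPM + 1), each of which left 0 genes (1150, 1198 and 1140 at an unadjusted p below 0.05 by limma). It was also lost without NTC replicate 2 at 0 uM, where 0 genes passed (878 at an unadjusted p below 0.05). Only groups of 4 libraries were examined for a library that stood apart, in 21 groups of values, and none was found. The Adar1 KO groups at 0, 0.016 and 0.4 uM hold 3 libraries each, so this examination could not flag any of theirs.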

How the results depend on the processing

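The 692 genes changed between 0.016 and 0 uM in Adar1 KO macrophages became 172 with only the 6 libraries, 14 with only the 16 Adar1 KO libraries and 1562 with array weights, which give each library its own weight. Leaving out 1 library gave 31 (0 uM replicate 1) to 1125 (0.4 uM replicate 2, in the shared spread), with 383 without 0 uM replicate 2, 1056 without 0 uM replicate 3, 202 without 0.016 uM replicate 1 and 144 without 0.016 uM replicate 2. The 17 genes past a log2FC of 2 became 200 at a limit of 1, 10 with the 6 libraries, 2 with the 16, 11 without a filter, 8 at a mean CPM above 5, 6 on log2(CPM + 1) and 37 with array weights. Leaving out 1 library gave 2 (0 uM replicate 1) to 36 (0 uM replicate 3), with 5, 8 and 33 without 0.016 uM replicates 1, 2 and 3. In NTC macrophages 0 became 44 with array weights and 0 to 17 with 1 library left out (17 without Adar1 KO 0.4 uM replicate 2). The difference between responses, 1 gene, became 420 with array weights and 0 on log2(CPM + 1). At a mean CPM above 5 it was also 0, but that filter leaves Dapk1 out, so its call was not tested there. With 1 library left out the count ran from 0 (NTC 0 uM replicate 2) to 12 (Adar1 KO 0 uM replicate 3), with 2 without Adar1 KO 0.016 uM replicate 3 and 5 without Adar1 KO 0.4 uM replicate 2. Between 0.4 and 0.016 uM the 1328 genes became 466 with the 16 libraries, 3404 with array weights, and 884 (without 0.016 uM replicate 1) to 2418 (without 0.4 uM replicate 2). Between 0.016 and 0.0006 uM the count was 0 at a mean CPM above 5, where Dapk1 was again left out. The single gene became 0 with the 16 libraries and on log2(CPM + 1), 2 without a filter, and 0 to 4 with 1 library left out: 4 without 0.0006 uM replicate 2 and 0 without 0.0006 uM replicate 1 or 3 or 0.016 uM replicate 1 or 2. Without 0.016 uM replicate 3 the 1 gene was another one, higher, so Dapk1 was lost without any 0.016 uM library. The causes were not tested.

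The median log2FC of the 20 ISGs ran from 0.21 to 0.37 and that of genes induced by Adar1 KO from 0.21 to 0.37 with 1 library left out. The median of the 20 ISGs between 0.4 and 0.016 uM ran from -5.40 (without 0.4 uM replicate 2) to -1.03 (without 0.4 uM replicate 1), with -1.97 without 0.4 uM replicate 3. In place of 8, 19 of the 20 ISGs fell there without 0.4 uM replicate 2, 1 without 0.4 uM replicate 1 or 3, and 1, 2 and 3 without 0.016 uM replicates 1, 2 and 3.

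Replicate numbers did not pair the libraries: deviations from the group means correlated at -0.04, -0.03 and -0.07 between libraries of the same number, and at 0.05 and 0.10 between libraries of the same run of 5 library numbers. Replicate 1 at 0 uM is in a run without a 0.016 uM library. With a replicate block by that number 637 genes changed, and 570 with a replicate block by runs of 5 library numbers, in place of 692, and the 17 genes past a log2FC of 2 became 15 and 12 (4 and 0 of them higher, in place of 5). The replicate block by either rule left 0 genes for the difference between responses and 0 between 0.016 and 0.0006 uM, and the run block moved the median of the 20 ISGs to 0.48. Low depth limits genes near 1 CPM, where 3 reads correspond to 0.098 to 0.362 CPM in the 0.016 uM libraries.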
